A study of Mus musculus with 2 samples.

Results

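Noct, Per1, Nampt and Tef, genes of the circadian clock or driven by it, were followed in liver RNA of mice on parenteral nutrition (PN), in which nutrients are given by vein, and of mice infused with saline. They were found as the rows of the deposited table whose platform annotation gave exactly 1 gene symbol and whose symbol was one of these names. Each of the 4 genes had 1 row, among 1750 genes named by such rows and 5082 rows in all. The saline pool came from mice of the inbred strain C57BL/6J that had a jugular catheter placed on day 1, were infused with saline from day 2 to collection on day 11 and kept their food. The PN pool came from mice of the same strain, catheterised and given saline in the same way, that received PN from day 3, with the food taken away, until collection on day 11. All mice were 6 to 10 weeks old and were housed under 12 h of light and 12 h of dark. RNA of 3 mice was pooled per group and each pool was measured on 1 array, so there was no replicate in either group, no spread between mice was measured, and the groups could not be tested against each other. The infusion of nutrients and the removal of food differed together and cannot be told apart. The hour of collection is not given in the sources used here. The source name of the PN sample also contains the word control, and its group was taken from its mouse group and title.

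The clock in liver cells is a feedback loop of transcription. CLOCK and BMAL1 (gene Arntl) bind E-boxes and switch on the Per and Cry genes, whose proteins then silence CLOCK and BMAL1, while REV-ERB and ROR nuclear receptors set the level of Arntl. Outputs of the loop include the PAR bZIP transcription factors DBP, TEF and HLF, which act on genes of detoxification through D-boxes, and enzymes such as NAMPT and Nocturnin (Noct). The hour of feeding is a strong time cue for the liver clock, and Per1 is in addition induced through cyclic AMP and by glucocorticoids. In the liver of mice fed freely under a light-dark cycle, Nr1d1 RNA is known to peak during the light, and Noct RNA in the early night.

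The sequences before the start sites of the 4 genes are shown because Per1, Noct and Nampt were higher and Tef was lower on PN, and because E-boxes, D-boxes and CREs are the elements through which the clock and cyclic AMP act. The windows hold the 250 bases before the start sites of these genes in the RefSeq promoter table of GRCm38.p6, on the plus strand, read 5′ to 3′. Capitals mark the E-box CACGTG and TGACG, the core of the CRE that CREB binds. Both Per1 windows and the second Tef window lie inside the annotated span of their own gene. The start of the Per1 span, at chr11:69095108, was not searched here, and first and second start refer to the windows shown.
Per1 first start, chr11:69098699-69098948: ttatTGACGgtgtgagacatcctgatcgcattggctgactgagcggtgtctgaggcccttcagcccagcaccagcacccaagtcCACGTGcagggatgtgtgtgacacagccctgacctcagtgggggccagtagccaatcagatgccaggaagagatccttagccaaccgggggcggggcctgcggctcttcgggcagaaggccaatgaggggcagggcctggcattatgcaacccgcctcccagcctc
Per1 second start, chr11:69099902-69100151: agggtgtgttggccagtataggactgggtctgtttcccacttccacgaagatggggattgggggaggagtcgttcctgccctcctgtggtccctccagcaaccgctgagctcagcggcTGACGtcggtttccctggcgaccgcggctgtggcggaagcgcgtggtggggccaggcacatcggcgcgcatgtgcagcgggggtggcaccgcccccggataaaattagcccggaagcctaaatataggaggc
Tef first start, chr15:81802423-81802672: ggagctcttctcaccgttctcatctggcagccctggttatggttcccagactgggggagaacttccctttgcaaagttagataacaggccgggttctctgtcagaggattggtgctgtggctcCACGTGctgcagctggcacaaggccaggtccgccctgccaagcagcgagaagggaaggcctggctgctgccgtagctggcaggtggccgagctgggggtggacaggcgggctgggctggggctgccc
Tef second start, chr15:81811164-81811413: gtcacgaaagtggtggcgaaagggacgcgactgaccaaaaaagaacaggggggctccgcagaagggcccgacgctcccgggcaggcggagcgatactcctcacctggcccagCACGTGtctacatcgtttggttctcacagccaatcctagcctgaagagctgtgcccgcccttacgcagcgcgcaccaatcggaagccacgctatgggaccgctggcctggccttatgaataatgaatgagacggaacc
Noct, chr3:51224197-51224446: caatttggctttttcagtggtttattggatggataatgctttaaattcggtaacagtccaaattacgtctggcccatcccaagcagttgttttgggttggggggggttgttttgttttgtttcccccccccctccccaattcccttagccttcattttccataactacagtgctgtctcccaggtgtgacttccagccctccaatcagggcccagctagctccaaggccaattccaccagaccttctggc
Nampt, chr12:32820085-32820334: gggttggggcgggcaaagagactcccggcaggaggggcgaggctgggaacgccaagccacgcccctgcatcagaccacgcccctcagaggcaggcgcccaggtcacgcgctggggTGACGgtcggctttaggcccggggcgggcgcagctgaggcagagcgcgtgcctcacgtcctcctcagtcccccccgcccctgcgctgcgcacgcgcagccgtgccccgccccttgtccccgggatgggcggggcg

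The letters CACGTG were found in both Tef windows and in the first Per1 window. In Tef they began 127 bases before the first start and 138 bases before the second, and in Per1 they began 166 bases before the first start. The core TGACG was found in both Per1 windows, beginning 246 and 132 bases upstream, and before Nampt, beginning 135 bases upstream. None of the motifs searched was found in the Noct window. Of 32817 windows of the same length in the table, 6.02% held CACGTG and 17.7% held TGACG on either strand. The related E-box CACGTT (3.85% of windows), the full CRE TGACGTCA (1.55%, which contains TGACG) and the D-box spellings TTATGTAA, TTACGTAA, TTACATAA and TTATATAA (1.43% for any of them) were found in none of the 6 windows. The G and C content of these windows ran from 49.6% in Noct to 75.6% in Nampt, against a median of 52.4% over all windows, and the E-box and CRE letters contain CG. The E-box letters thus stood before a gene that was higher in the PN pool, Per1, and before the one that was lower, Tef. A match is a description of the letters and not a binding site.

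**Figure D1:**
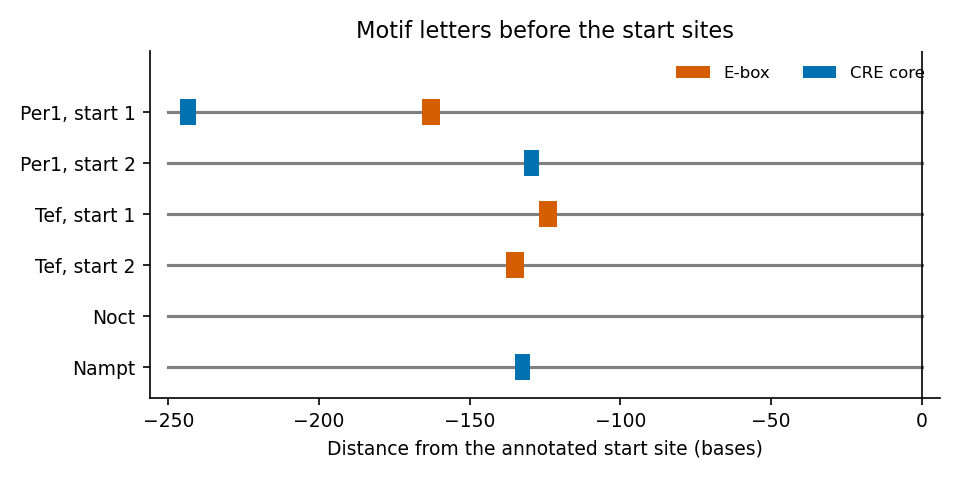
Position of motif letters in the 250 bases before each start site of the 4 genes in the RefSeq promoter table, on an axis of distance from the start in bases. Coloured blocks are the E-box and the CRE core on either strand; the E-box stands in both Tef windows and the first Per1 window, and the Noct window holds no block.

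Values below are levels from RMA (robust multi-array average) on the log2 scale, and a difference is the PN level minus the saline level, so that a difference of 1 is a fold of 2. The authors had kept only rows that differed by at least 1.5-fold. The smallest absolute difference in the table was 0.585, which is 1.5-fold on this scale. All 4 genes therefore differ by at least that much by construction, and a clock gene without a value is not thereby unchanged: it differed by less, carries no single name here or was not measured. Levels of different genes come from different probes, so a higher level of one gene than of another does not show more RNA.

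Per1, a repressor of the core loop, had a level of 6.47 with saline and 7.41 on PN. It was 1.92-fold higher in the PN pool, a difference of 0.94. By the size of the difference this was position 178 among the 878 genes that were higher. The gene spans chr11:69095108-69109965, and its single probe set, 17251527, does not separate the transcripts of its start sites.

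Tef, which encodes a PAR bZIP activator of the D-box, went the other way. Its level was 6.17 with saline and 5.39 on PN. It was 1.72-fold lower in the PN pool, a difference of -0.78, which was position 328 among the 872 genes that were lower. The gene spans chr15:81802673-81826863 and was read by probe set 17313376.

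Noct encodes Nocturnin, an enzyme of the CCR4 exonuclease family that was first described as an mRNA deadenylase and was later shown to remove a phosphate from NADP(H). Its level was 5.24 with saline and 7.57 on PN. It was 5.02-fold higher in the PN pool, a difference of 2.33, which was position 12 among the 878 higher genes and the only one of the 4 past 2-fold. Its difference exceeded that of Per1 by 1.39 on the log2 scale. The gene spans chr3:51224447-51251654 and was read by probe set 17397426.

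Nampt encodes the enzyme that makes nicotinamide mononucleotide, the rate-limiting step in the recycling of nicotinamide to NAD. Its level was 6.38 with saline and 7.05 on PN. It was 1.59-fold higher in the PN pool, a difference of 0.67, which lay 0.087 past the cutoff of the table. That was position 576 among the 878 higher genes. The gene spans chr12:32820335-32853369 and was read by probe set 17274875.

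**Figure D2:**
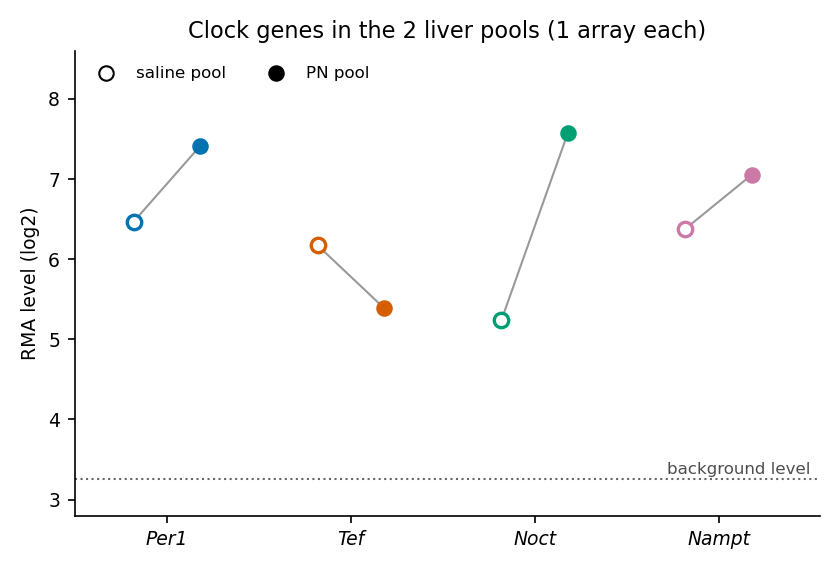
RMA level (log2, vertical axis) of the 4 genes in the saline pool (open circles) and the PN pool (filled circles), 1 array per pool and no error bar. Per1, Noct and Nampt were higher and Tef was lower in the PN pool, and every level lay above the dotted background level of 3.26.

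Of the 4 genes 3 were higher in the PN pool, beside 50.2% of the 1750 named genes, and 1 was past 2-fold. Of the named genes 7.60% were at least 2-fold higher and 14.8% at least 2-fold different in either direction. With so few genes, and genes chosen with these values known, the count is a description. The lowest of their levels, 5.24 for Noct in the saline pool, lay 1.98 above the background level of 3.26, the median of the higher level of 133 chemosensory receptor genes in the table. These receptor genes, which are known from sensory epithelia, also give a scale for the differences, although they too had passed the cutoff and were mostly dimmer, with a 95th percentile of 5.02 for their higher level. Of the 133, 91 had a larger absolute difference than Nampt, 42 a larger one than Tef, 17 a larger one than Per1 and 0 a larger one than Noct. The difference of Noct was larger than that of any of these genes, and those of the other 3 lay within their range. With 1 array per group and genes selected by the same cutoff, this range does not measure the spread between mice or arrays.

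**Figure D3:**
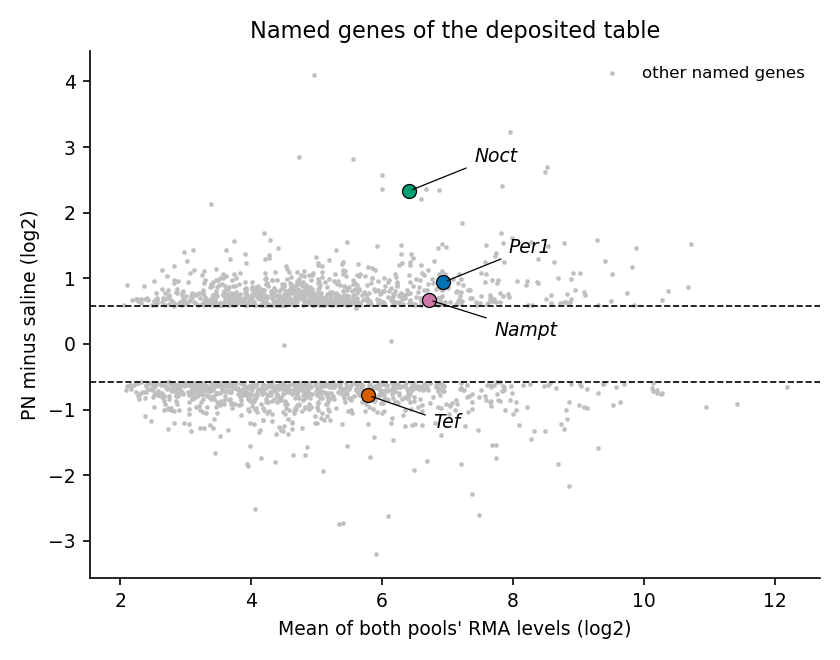
Difference between the pools (PN minus saline, log2) against the mean of both levels (log2) for the 1750 named genes in grey and the 4 clock genes in colour, with dashed lines at the 1.5-fold cutoff. Noct lies among the largest differences. Nampt lies near the cutoff, while Per1 and Tef lie farther past it but under 2-fold. The few genes between the lines are averages over rows of opposite direction.

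Genes of the wider clock had few values. Of 42 genes in 6 lists of loop components, outputs and PAR bZIP targets, 14 had a value, with 8 higher and 6 lower and a median difference of 0.67, beside 878 higher, 872 lower and a median of 0.59 over all named genes. That overall median sits at the cutoff because higher and lower genes were nearly equal in number. The median was 0.73 over the higher named genes alone and -0.72 over the lower ones alone. Without the 4 genes above, 5 of the remaining 10 were higher and 5 lower.

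Among the activators of the loop, Rora, an activator of Arntl, was the only 1 of 7 with a value. Its level was 6.72 with saline and 6.04 on PN, a difference of -0.68. The list held Clock, Npas2 and Arntl, none of which had a value. Of the 10 repressors 3 had a value. Per3, a paralog of Per1, was 1.59-fold higher, with levels of 5.03 with saline and 5.70 on PN. Nr1d1, which encodes REV-ERB alpha, the repressor of Arntl, was 1.54-fold lower, with 8.84 and 8.22. The Per genes with a value were thus both higher, whereas Nr1d1 was lower together with Rora. The differences of Per3 (0.67), Nr1d1 (-0.62) and Rora (-0.68) lay near the cutoff of 0.585. The 7 repressors without a value included Per2, Cry1, Cry2 and Nr1d2. Of 7 genes for the turnover of clock proteins, only Fbxl21, a ubiquitin ligase subunit, had a value. It was 1.52-fold lower on PN, from 4.91 to 4.30, close to the 1.5-fold cutoff. Both levels lay under 5.02, the 95th percentile of the receptor genes' higher level.

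Of the 4 genes of the PAR bZIP factors and their D-box competitor, Tef had a value, and Dbp, Hlf and Nfil3 had none. Of 9 liver genes known as targets of these factors, 5 had a value, with 3 higher and 2 lower and a median of 0.70. Alas1, the first enzyme of heme synthesis, was 2.11-fold higher, at levels of 8.49 with saline and 9.56 on PN. The bile acid enzyme gene Cyp7a1 was 2.41-fold higher, at 8.77 and 10.0, and Cyp2a4 was 1.62-fold higher. The P450 genes Cyp2b10 and Cyp2a5 were lower, with differences of -2.75 and -1.93. The targets with a value thus went in both directions, while Tef was lower. Cyp2a4 and Cyp2a5 are close paralogs whose probes can share target sequence, so their values are uncertain.

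Among 8 genes with clock-driven rhythms in liver, the 4 with a value were all higher, beside 50.2% of named genes. They were Noct, Nampt, Alas1 and Rgs16, of which the first 2 are members chosen with their values known. Without them 2 genes had a value. Tef, Nr1d1 and Rora, counted in other clock lists, were lower. The list does not hold every gene with such a rhythm. Cdkn1a, Elovl3 and Klf10, also known to be rhythmic in liver and not listed, were lower on PN. Cdkn1a was at 8.44 with saline and 6.90 on PN, Elovl3 at 10.1 and 8.50, and Klf10 at 6.00 and 5.30. Rgs16, a regulator of G protein signalling whose liver RNA also follows feeding, was 1.90-fold higher, at levels of 7.93 with saline and 8.85 on PN. The 4 without a value were Wee1, Por, Usp2 and Thrsp.

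**Figure D4:**
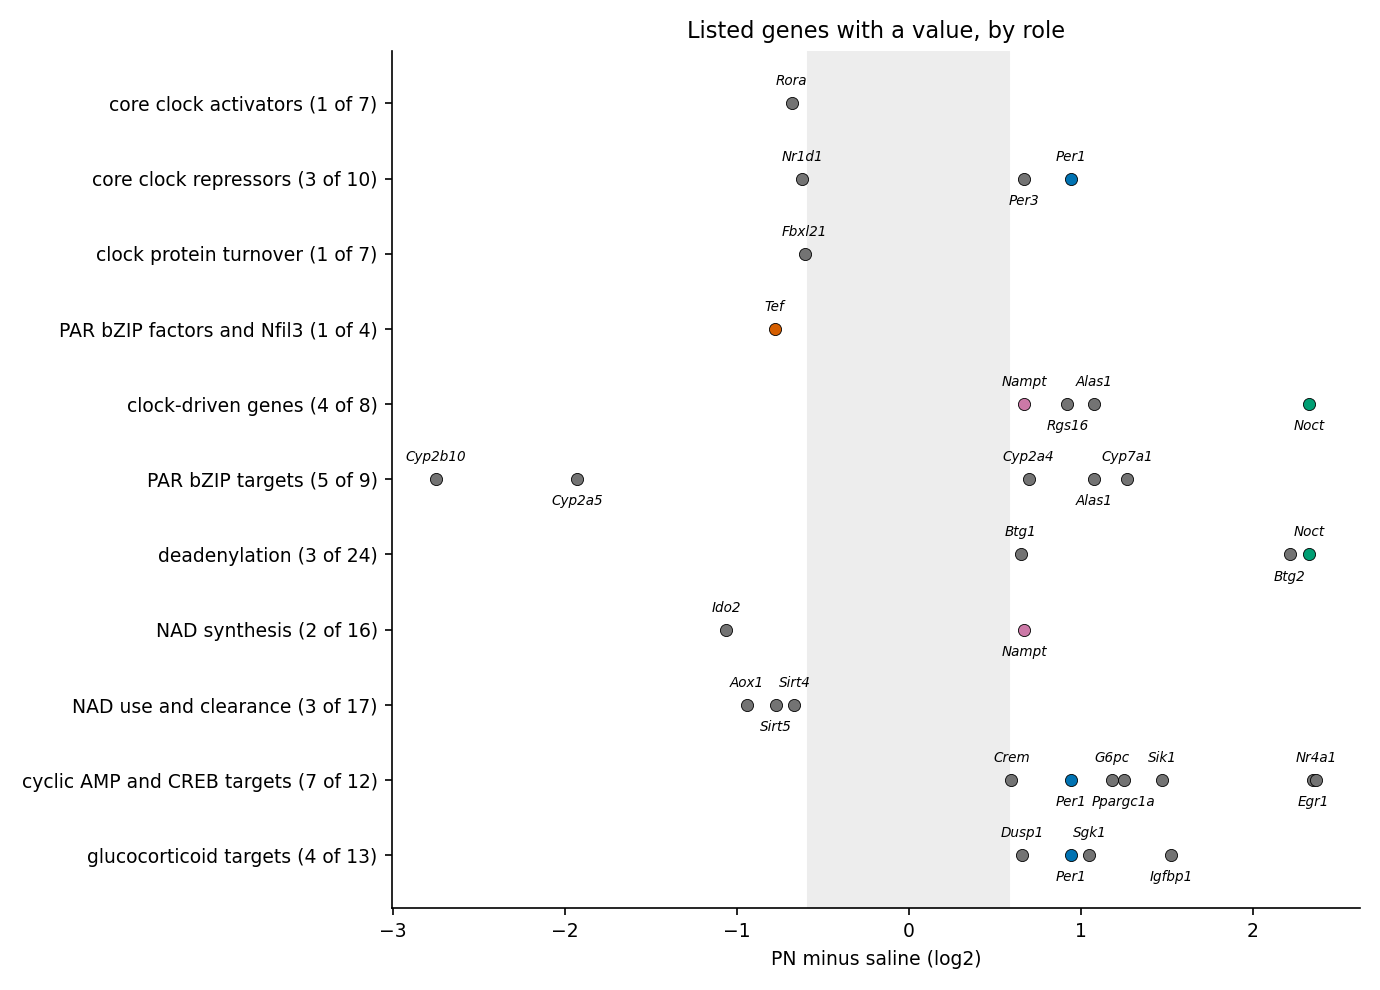
Difference between the pools (PN minus saline, log2) of every listed gene with a value, 1 row per list, with the number of listed genes that had a value beside each list name. The 4 clock genes are coloured, and the grey band holds differences under 1.5-fold, for which the deposited table has no rows. All 7 listed cyclic AMP and CREB targets with a value lie to its right. All 3 listed genes of NAD use with a value lie to its left.

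The genes around Noct and Nampt in metabolism were also followed. Of 24 genes of the CCR4 family and mRNA deadenylation 3 had a value, and all were higher, beside 50.2% of named genes. Beside Noct these were Btg2, an antiproliferative factor that recruits the deadenylase, at levels of 5.49 with saline and 7.71 on PN, and its relative Btg1, at 6.38 and 7.04. The 21 others, which included every listed subunit of the CCR4-NOT complex, had none. Of 16 genes of NAD synthesis 2 had a value in a row of their own. While Nampt was higher, Ido2, a tryptophan dioxygenase at the start of the route from tryptophan to NAD, was 2.09-fold lower, at 7.56 and 6.49. A row shared by Acmsd and a RIKEN gene, not counted here, had a difference of -0.92. Of 17 genes of NAD use and nicotinamide clearance 3 had a value, and all were lower, with a median of -0.77, beside 49.8% of named genes that were lower. Sirt5, a mitochondrial NAD-dependent deacylase, was 1.71-fold lower and Sirt4, another mitochondrial sirtuin, 1.59-fold lower. Aox1, an aldehyde oxidase that can oxidise nicotinamide derivatives, was 1.92-fold lower, from 8.14 to 7.19. Within these NAD lists Nampt was higher, and the other 4 genes with a value of their own were lower. The lists do not hold every gene of NAD use. Tiparp, which encodes an ADP-ribosyltransferase that consumes NAD and was not listed, was higher, at 5.46 with saline and 6.42 on PN.

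The listed genes induced by the signals that also induce Per1 were higher where they had a value. These lists were chosen with such values known and do not hold every gene that the signals induce. Of 12 targets of cyclic AMP and CREB 7 had a value and all were higher, beside 50.2% of named genes, with a median of 1.25, or 1.36 for the 6 without Per1. Nr4a1, an orphan nuclear receptor, was at levels of 5.49 with saline and 7.86 on PN. Egr1, an immediate early transcription factor, was at 5.69 and 8.04. The kinase gene Sik1 differed by 1.47, the coactivator gene Ppargc1a by 1.25, the glucose-6-phosphatase gene G6pc by 1.18 and Crem, a cyclic AMP-responsive factor, by 0.60. Per1 had the second smallest of these 7 differences, above Crem. Of 13 targets of the glucocorticoid receptor 4 had a value and all were higher, beside the same 50.2%, with a median of 1.00, or 1.05 for the 3 without Per1. The kinase gene Sgk1 was 2.07-fold higher, the phosphatase gene Dusp1 1.58-fold and the growth factor binding protein gene Igfbp1 2.88-fold. Fkbp5, Tsc22d3 and Zbtb16, also on this list, had no value. Orm2, an acute phase gene that glucocorticoids also induce and that was not listed, was lower, at 8.79 with saline and 6.18 on PN.

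The genes whose pair of values lay nearest to each of the 4 were found by the Euclidean distance of saline and PN levels, over these 2 pools. Nearest to Noct were Btg2 at a distance of 0.29, Nr4a1 at 0.38 and Marco, a macrophage scavenger receptor gene, at 0.59. Nearest to Per1 were the ceramide synthase gene Cers6 at 0.044, Frmd4b at 0.064 and the cyclin D1 gene Ccnd1 at 0.075. Nearest to Nampt were the corepressor gene Tle1 at 0.016, Btg1 at 0.017 and the transcription factor gene Ets2 at 0.043. Nearest to Tef were Tmem184a at 0.033, Rundc3a at 0.050 and Fance, a gene of the Fanconi anaemia pathway, at 0.067. These distances also depend on how each probe set responds, so they describe values in this table and not amounts of RNA.

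Bulk liver RNA holds several cell types, and fewer cells of a type and less RNA per cell cannot be told apart. Nampt and Noct are also expressed in myeloid cells. Of 20 macrophage and dendritic cell markers 11 had a value. All 11 of these were higher on PN, and 50.2% of all named genes were higher, which is the background for the marker counts that follow too. The median difference of the 11 was 0.73, the same as over all higher named genes. Their summed level was 10.5 with saline and 11.3 on PN, as log2 of the sum. Marco led them at 4.81 and 7.17, and the Kupffer cell gene Clec4f was at 7.30 and 7.91. Of 12 neutrophil markers 3 had a value and were higher (summed level 6.35 and 7.34), and of 16 lymphocyte and NK cell markers 5 (7.06 and 7.92). Cholangiocyte markers had 3 values of 9, of which 1 was higher, with a summed level of 6.49 and 6.13. Lum was the only 1 of 11 stellate cell markers with a value and had 5.12 and 6.05. None of the 10 endothelial markers had a value. Some markers were dim. Flt3, Cd3e, Gzma, Klrb1c, Csf3r, Epcam and Prom1 lay under 5.02, the 95th percentile of the receptor genes' higher level, in both pools. Prom1 with saline, at 3.21, lay under the background level of 3.26. The part of these cell types in the higher Noct and Nampt levels was not tested. Of 14 hepatocyte markers Cyp2f2 alone had a value, at levels of 9.43 with saline and 8.13 on PN, so most defining genes of liver, such as Alb and Ttr, could not be checked in a table of differing rows.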

How the data were processed

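The deposited table holds log2 values, 1 per probe set and array, for 2 arrays of pooled liver RNA. The authors' software was Affymetrix Expression Console 1.4.0.38 with RMA, per the submitters' processing notes, and rows were kept past a 1.5-fold cutoff, per the series' design text. Not given in the sources used here are the genome build, the annotation of probes and which arrays were normalized together. The 2 arrays limit the precision.

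The platform annotation gave 1 symbol to 1779 of 5082 rows, several to 161 and no symbol to 3142. By Entrez identifier, 1766 of the first kind matched RefSeq (GRCm38.p6). Rows of a gene were averaged, and rows with several symbols named no gene. Coordinates and promoter sequences are RefSeq's. All 4 genes matched, with 6 windows in all, and the 50 bases after each start were left out.

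The members, the 18 gene lists and the rules were chosen with earlier results of these data known. The named genes behind each share are all 1750 genes with 1 symbol. The genes described in the text are the 4 members, listed genes with a value and the 3 nearest genes to each member, with predicted, RIKEN, chemosensory receptor and small RNA genes left out of the nearest. With 1 array per group no p-value was computed. Python 3.11.15, pandas 2.3.3 and numpy 2.4.6 were used, and the functions were tested on simulated data. Alternatives were each array's median subtracted, quantile normalization, levels raised to the background level, the brightest row of a gene, a 2-fold cutoff, rows with several symbols counted and a shorter promoter window.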

Additional observations from a re-analysis of the deposited data

How the results depend on the processing

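The differences of Noct, Per1, Nampt and Tef kept their direction and stayed past 1.5-fold under each of the 4 alternatives run on them. Subtracting each array's median gave 2.35 for Noct, 0.96 for Per1, 0.69 for Nampt and -0.76 for Tef, and quantile normalization over the deposited rows, which had already been selected, gave 2.33, 0.93, 0.68 and -0.77. Raising levels to the background level or taking the brightest row changed none of the 4, since no level lay under it and each gene had 1 row. A 2-fold cutoff left 1 of the members higher (3 at 1.5-fold). It left 5 clock list genes with a value, of which 3 were higher (14 and 8 at 1.5-fold). Of the neighbouring lists it left 10 genes, of which 9 were higher (18 and 14 at 1.5-fold). Fewer rows pass it by construction. Of the 1750 named genes 259 passed it, and 133 of these were higher. The lists include members and were chosen with such values known. Counting rows with several symbols added 1 gene to the neighbouring lists and none to the clock lists. In the 100 bases before the start sites 0 of the 6 motif matches were found. No paired analysis was possible because each group has 1 sample. The depth of arrays is not a count, and no spread between mice or arrays was available to set the size of any difference against. All member levels lay at least 1.98 above the background level, which is a median that 66 of the 133 receptor genes exceed. The lowest, 5.24 for Noct with saline, lay close above 5.02, the 95th percentile of the receptor genes' higher level.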
